A study of Homo sapiens with 25 samples.

Results

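The regions described are the sites where the histone demethylase LSD1 (KDM1A) and the repressor GFI1 met away from H3K4me3 in NB4 cells. NB4 is an established line from a human acute promyelocytic leukemia whose cells mature when given retinoic acid (RA). The sites were selected on measured peaks: a peak of the LSD1 list from solvent-treated cells was taken when it shared at least 1 base with a GFI1 peak and no base with an H3K4me3 peak of solvent-treated cells. This left 2637 of the 12562 LSD1 peaks (21.0%), called distal LSD1 sites with GFI1 here by that rule and not by distance to a gene. The GFI1 overlap and the absence of H3K4me3 in DMSO were therefore fixed by the choice and are no result. The closest set for comparison was the 2183 LSD1 peaks that also lacked H3K4me3 in DMSO but carried no GFI1 peak, called distal sites without GFI1.

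Chromatin immunoprecipitation with sequencing (ChIP-seq) had been run on H3K4me1, H3K4me2, H3K4me3 and H3K27ac in 5 conditions of 24 h each. These were the solvent DMSO, the LSD1 inhibitor MC_2580 (dose not given in the sources used here), RA at 0.01 µM, RA at 1 µM, and MC_2580 joined with RA at 0.01 µM, called the combination. LSD1 was mapped in DMSO and with MC_2580, and GFI1 in untreated cells, so whether GFI1 stayed on a site during a treatment was not measured. With a single library for each antibody and condition, no treatment could be tested, and all 4 treatments were set against the same DMSO lists. The H3K4me3 library of the combination carries RA at 1 µM in its title and 0.01 µM in its treatment field, so the counts of the pattern that rests on it are also given without it. The longest H3K27ac list, with 55793 peaks against 24552 to 41191 in the others, came from RA at 0.01 µM, and the counts of 3 patterns of H3K27ac are also given without it.

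LSD1 removes methyl groups from mono- and dimethylated lysine 4 of histone H3 and works as part of the CoREST repressor complex. GFI1 is a zinc finger repressor of blood cell development whose SNAG domain docks into LSD1 and brings it to DNA. H3K4me1 is a general mark of enhancers, H3K4me2 is found at stronger enhancers and at promoters, H3K4me3 is foremost a promoter mark, and H3K27ac labels both kinds of element when in use.

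A mark was called at a site when a peak of its list shared at least 1 base with the site, and the set of marks called in a condition is named the joint state of the site. A missing call means only that no peak reached the lowest score kept, which was 50 in the histone and GFI1 lists. The score is the authors' value for each peak and ranks peaks within a list, with many peaks tied at 3100, so it was not compared between libraries. Shares are followed by 95% exact binomial intervals and differences between classes of sites by 95% normal intervals. Both cover counting error over sites alone, since sites share their libraries and are not replicates, and the read depth behind the lists is unknown.

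The 2637 sites were 1762 bases wide in the median, close to the 1693 bases of the distal sites without GFI1. Their median LSD1 score was 444 against 325, and their median GFI1 score was 135. A second GFI1 peak or more lay on 287 of them. The nearest H3K4me3 peak of DMSO was 17.6 kb away in the median. It lay within 1 kb of 143 sites and beyond 10 kb from 1669 sites. The sites were mostly solitary: 2099 windows of 100 kb held at least 1, and 1690 of those windows held exactly 1. An LSD1 peak was again found with MC_2580 on 79.3% of them (77.7 to 80.8), compared with 90.6% (89.3 to 91.8) of the distal sites without GFI1.

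In DMSO most of the sites were in 1 of 5 joint states. H3K4me1, H3K4me2 and H3K27ac stood together on 883 sites (33.5%), the makeup of an active enhancer. H3K4me1 stood alone on 659 sites (25%). H3K4me1 with H3K27ac was called on 483 sites, and H3K4me1 with H3K4me2 but no H3K27ac on 366. No mark was called on 220 sites (8.34%). Distal sites without GFI1 had a different starting mixture, with H3K4me1 alone on 13.8% and the states with H3K4me1 and H3K27ac on 39.5% (H3K4me2 also called) and 27.1% (H3K4me2 not called).

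**Figure D1:**
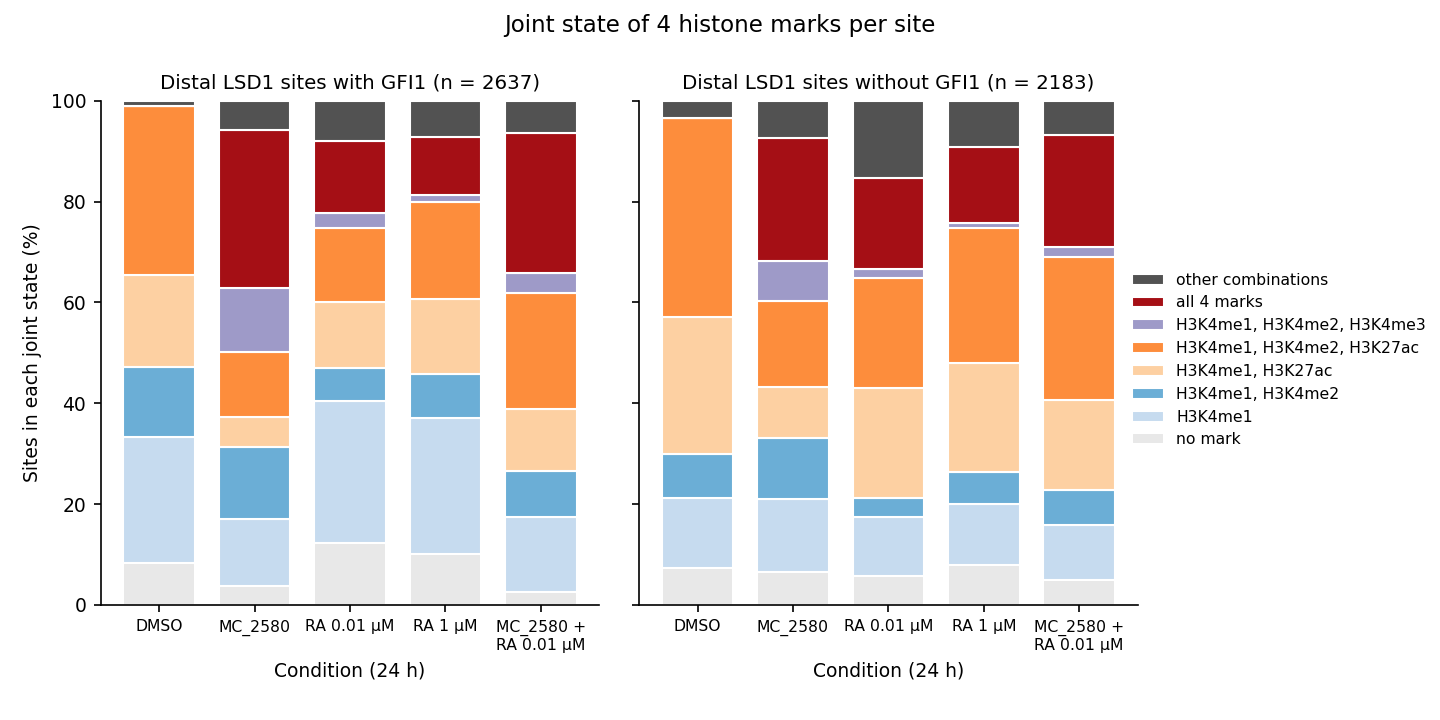
Share of sites (vertical axis, percent) in each joint state of 4 histone marks, in the 5 conditions (horizontal axis), for the 2637 distal LSD1 sites with GFI1 (left) and the 2183 without (right). With GFI1, the block with all 4 marks takes 31.4% with MC_2580 and 27.8% in the combination, and 14.3% and 11.5% with RA at 0.01 and 1 µM, while H3K4me1 alone takes 28.3% and 26.9% after these doses.

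The 4 treatments left the sites in different joint states. With MC_2580 all 4 marks were called on 829 sites (31.4%, 29.7 to 33.3), against a background of 28.3% over all 4820 LSD1 sites without H3K4me3 in DMSO. In the combination it was 734 sites (27.8%, background 25.3%). The RA doses alone gave 378 sites (14.3%, background 16%) at 0.01 µM and 302 sites (11.5%, background 13.1%) at 1 µM. These and all later backgrounds include the sites with GFI1 themselves, which are 2637 of the 4820. All 4 marks were thus called together more often in the inhibitor conditions than with RA alone, and none of the sites could be in that state in DMSO, by choice. H3K4me1 alone, the state of 659 sites in DMSO, was that of 347 and 393 sites (13.2% and 14.9%) in the inhibitor conditions (MC_2580 and the combination), and of 747 and 710 sites (28.3% and 26.9%) at the low and the high RA dose. At distal sites without GFI1 these shares were 14.5% and 10.9%, and 11.8% and 12.0%. No mark was called on 3.79% and 2.62% of the sites in the inhibitor conditions and on 12.2% and 10.0% with the RA doses, compared with 6.50% and 4.90%, and 5.68% and 7.97%, without GFI1.

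The joint state was not that of DMSO at 1953 sites with MC_2580 (74.1%, background 69.7%). It differed at 1514 sites with RA at 0.01 µM (57.4%, background 57.9%), at 1335 with RA at 1 µM (50.6%, background 51.3%) and at 1797 in the combination (68.1%, background 63.6%). Against distal sites without GFI1 the difference was 9.66 percentage points (7.04 to 12.3) with MC_2580 and 10.1 points (7.33 to 12.8) in the combination. With the RA doses alone the intervals of the difference, -3.84 to 1.76 and -4.34 to 1.33 points, included 0. Some other settings put the sites with GFI1 lower. A minimum score of 100 gave -5.97 points (-8.64 to -3.30) at 0.01 µM and -4.32 points (-7.00 to -1.64) at 1 µM. At 0.01 µM the site centre rule gave -4.20 points (-6.88 to -1.52) and lists of equal length -4.16 points (-6.98 to -1.33). The score minimum also changed the classes themselves, to 2059 sites with GFI1 and 3740 without. The site centre rule changed them to 2264 and 3097. A state shared by all 5 conditions was found at 224 sites (8.49%), and at 299 of the distal sites without GFI1 (13.7%). With the 5 lists of each mark cut to equal length, the state was another than in DMSO at 57.3% of the sites with MC_2580, 50.8% and 47.4% with the RA doses and 58.4% in the combination, and 397 sites kept 1 state.

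The direction of these moves separated the inhibitor from RA. The MC_2580 list was longer than that of DMSO for H3K4me2 (50736 and 40598 peaks) and H3K4me3 (29872 and 21688). It was shorter for H3K4me1 (54181 and 57630) and H3K27ac (24552 and 32789). The part of list length in the direction of the moves was not tested. With MC_2580, 1637 sites only added calls and 143 only dropped calls. In the combination, 1553 added and 163 dropped. With RA at 0.01 µM, 706 sites only added and 624 only dropped calls, and with RA at 1 µM it was 706 and 513. H3K4me3 could only appear at these sites, so the count was repeated on the other 3 marks. Without H3K4me3, 888 sites only added and 253 only dropped calls with MC_2580, and 983 and 216 did so in the combination. For the RA doses the balance then lay with the drops, 324 added against 754 dropped at 0.01 µM and 366 against 589 at 1 µM. Distal sites without GFI1 were nearly balanced on these 3 marks with MC_2580 (402 added, 372 dropped) and with each RA dose (393 and 420 at 0.01 µM, 392 and 378 at 1 µM), and only the combination leaned to additions there (568 and 238).

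H3K4me2, a direct substrate of LSD1, was newly called on 664 of the 1376 sites that lacked it in DMSO with MC_2580 (48.3%, background 42% over all LSD1 sites without it). The combination gave 536 (39.0%, background 35.5%). RA gave 137 at 0.01 µM (9.96%, background 12.6%) and 187 at 1 µM (13.6%, background 16.9%). Of the 1261 sites that had H3K4me2 in DMSO, 364 had no call with RA at 0.01 µM (28.9%, background 7.45%) and 344 with RA at 1 µM (27.3%, background 8.13%). These backgrounds are mostly sites with H3K4me3, where H3K4me2 was seldom missing. The calls missing with MC_2580 (32 sites, 2.54%, background 1.09%) and in the combination (103 sites, 8.17%, background 2.69%) were fewer.

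H3K27ac, the mark of active elements, was newly called with MC_2580 on 306 of the 1255 sites that lacked it (24.4%, background 20%). RA at 0.01 µM gave 252 (20.1%, background 36%) and RA at 1 µM gave 231 (18.4%, background 28.9%). In the combination it was 552 sites (44.0%, background 46.9%). The sites lay above the background with MC_2580 alone, and below it with both RA doses and in the combination. Of the 1382 sites with H3K27ac in DMSO, the call was missing at 277 with MC_2580 (20%, background 11.3%), at 403 with RA at 0.01 µM (29.2%, background 10.1%), at 271 with RA at 1 µM (19.6%, background 7.27%) and at 155 in the combination (11.2%, background 4.91%). These backgrounds too are mostly sites with H3K4me3. Against distal sites without GFI1 the order with MC_2580 was the other way round: the call was missing at 21.9% and 28.0% of the sites that began with H3K4me1 and H3K27ac (with and without GFI1), and at 18.4% and 20.4% of those that also had H3K4me2. The share still called was higher with GFI1 by 6.09 points (0.926 to 11.3) and 2.07 points (-1.64 to 5.78). The second interval included 0. With RA at 0.01 µM the call was missing more often with GFI1, at 39.8% and 18.4%, and at 23.4% and 10.2%, in these starting states. With RA at 1 µM it was missing at 25.3% and 16.6%, and at 16.65% and 8.35%.

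H3K4me3 was called on 1294 sites with MC_2580 (49.1%, background 44% over the LSD1 sites without it in DMSO). It was called on 993 in the combination (37.7%, background 33.5%). RA gave 609 at 0.01 µM (23.1%, background 24.7%) and 485 at 1 µM (18.4%, background 19.7%). Most of these calls stood apart from older peaks: at 1197 of the 1294 sites with MC_2580 the new peak touched no H3K4me3 peak of DMSO. The new peaks were weak for their list, with a median score of 131 where the whole MC_2580 list had 426.

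The calls after treatment went with the state in DMSO. Sites that started with H3K4me1, H3K4me2 and H3K27ac carried H3K4me3 with MC_2580 at 633 of 883 (71.7%), and 532 of them held all 4 marks. From H3K4me1 and H3K4me2 without H3K27ac, H3K4me3 was called at 232 of 366 sites (63.4%). From H3K4me1 alone it was 207 of 659 (31.4%). In each of these starting states the share was higher than at distal sites without GFI1, by 13.3 points (8.90 to 17.8), 17.8 points (9.22 to 26.4) and 12.5 points (6.88 to 18.2).

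H3K27ac separated the site classes at sites that began with H3K4me1 but no H3K27ac. From H3K4me1 alone, MC_2580 was followed by H3K27ac at 169 of 659 sites with GFI1 (25.6%) and at 34 of 302 without (11.3%). RA at 1 µM was followed by it at 101 sites with GFI1 (15.3%) and 109 without (36.1%). The order of the classes was thus opposite for inhibitor and RA. In the combination the classes were close, 45.4% with GFI1 and 44.4% without, with a difference of 1.00 points (-5.77 to 7.77). From H3K4me1 with H3K4me2 the same arrangement held: 33.3% against 16.2% with MC_2580 and 56.3% against 56.0% in the combination. RA gave 33.3% against 46.6% at 1 µM, and 37.2% against 62.3% at 0.01 µM, the condition with the longest H3K27ac list. Sites without any mark in DMSO did not share the difference with MC_2580, where H3K27ac was called at 6.82% with GFI1 and 9.38% without, but with RA at 0.01 µM they stood at 8.64% and 48.1%.

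**Figure D2:**
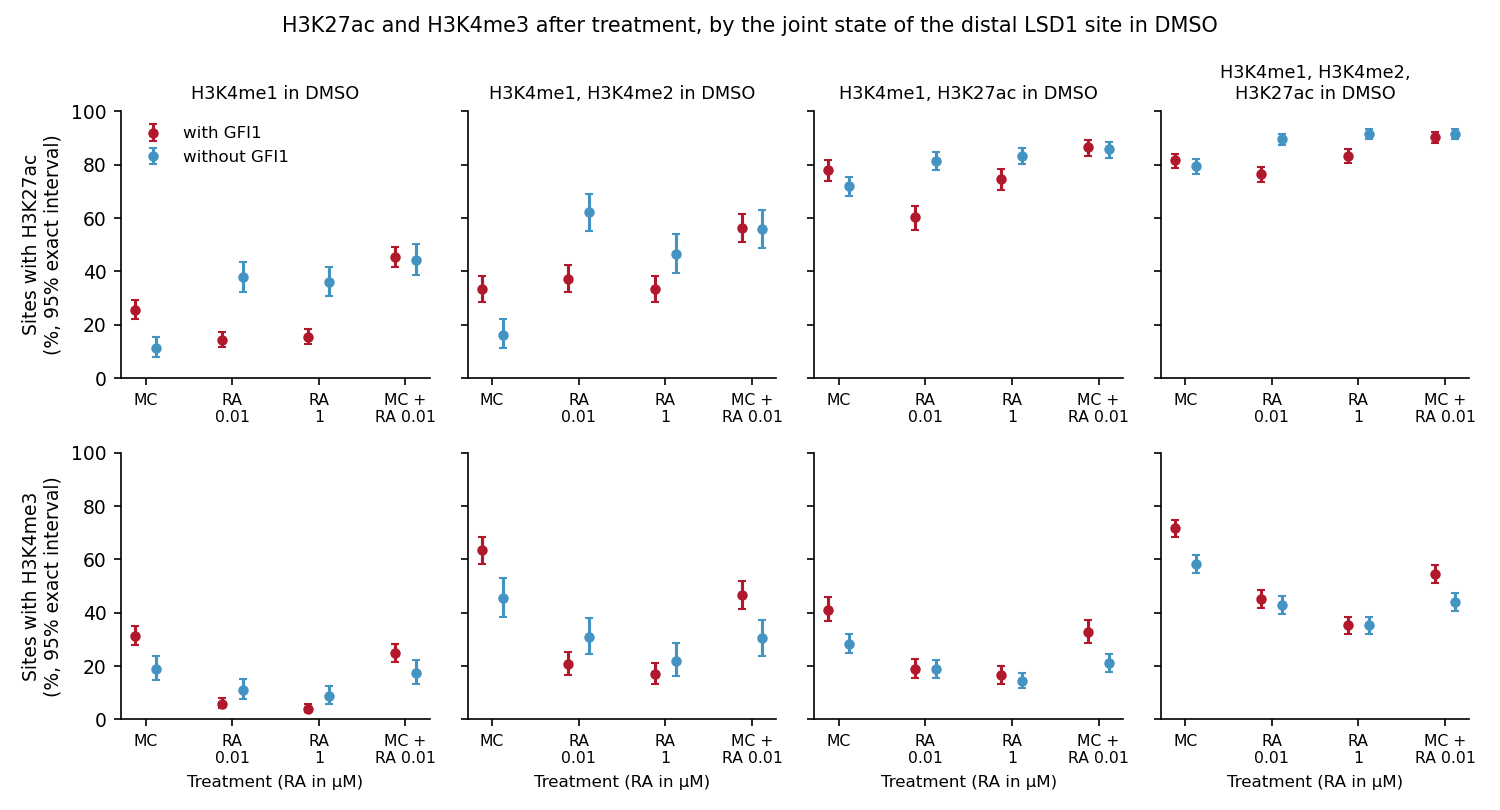
Share of sites with H3K27ac (top) and H3K4me3 (bottom) after each treatment (horizontal axis), in columns by the joint state in DMSO. Points are shares with 95% exact intervals for distal LSD1 sites with GFI1 (red) and without (blue); with H3K4me1 alone in DMSO, H3K27ac is at 25.6% against 11.3% with MC_2580 and at 15.3% against 36.1% with RA at 1 µM.

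A site where a mark was called with MC_2580 and in the combination, and in none of DMSO, RA at 0.01 µM and RA at 1 µM, is said below to follow the inhibitor pattern in that mark. At least 1 of the 4 marks followed it at 672 sites (25.5%, 23.8 to 27.2), where the background over LSD1 sites without H3K4me3 in DMSO was 17.7%. Distal sites without GFI1 had 181 (8.29%), a difference of 17.2 points (15.2 to 19.2). GFI1 peaks without LSD1 gave a second reference: of 6300 that had another histone mark but no H3K4me3 in DMSO, 379 (6.02%) followed the pattern in some mark. GFI1 peaks are narrower than LSD1 peaks (median 752 bases over the GFI1 list), so fewer histone peaks can touch them.

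By mark, H3K4me3 followed the inhibitor pattern at 347 sites (13.2%, background 9.02%), against 88 of the distal sites without GFI1 (4.03%). Without the combination library of uncertain dose, H3K4me3 was called with MC_2580 and with neither RA dose at 710 sites (26.9%). These are the 347 sites and 363 more (13.8%) called with MC_2580 only, where distal sites without GFI1 had 227 (10.4%). In that added part the classes lay closer than in the inhibitor pattern. H3K4me2 followed the pattern at 254 sites (9.63%, background 2.76% of all LSD1 sites), against 73 (3.34%). H3K27ac followed it at 125 sites (4.74%, background 1.35%), against 7 (0.321%). Without the longest H3K27ac list it was 150 sites (5.69%), with a difference of 4.86 points from distal sites without GFI1. Like all backgrounds, those of single H3K4me2 and H3K27ac patterns, here and below, include the members. They are mostly sites with H3K4me3 in DMSO. Those sites seldom lacked either mark in DMSO. H3K4me1 followed the inhibitor pattern at 106 sites (4.02%), against 27 (1.24%).

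At some sites the marks coincided. The pattern was followed by 2 or more marks at 138 sites (5.23%, background 3.15%), against 14 of the distal sites without GFI1 (0.641%) and 35 of the 6300 GFI1 peaks without LSD1 (0.556%). The background count was 152 sites, and these include the 138. Without the H3K4me3 combination library the count with GFI1 was 194 (7.36%). The commonest pairs were H3K4me2 with H3K4me3 at 67 sites, H3K4me3 with H3K27ac at 54 and H3K4me2 with H3K27ac at 36. Among distal sites without GFI1 these pairs came to 11, 1 and 0. Pairs with H3K4me1 were fewer, 13 with H3K4me2, 7 with H3K4me3 and 7 with H3K27ac. At 20 sites 3 or more marks followed it, and at 2 of these all 4.

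Many of the calls behind the pattern were weak. Sites free of calls scoring under 100 in the lists that the pattern uses numbered 77 for H3K27ac, 88 for H3K4me2, 131 for H3K4me3 and 45 for 2 or more marks. Distal sites without GFI1 then had 4, 17, 12 and 1. With lists of equal length, H3K4me2 followed the pattern at 157 sites and at 40 without GFI1, and H3K4me3 at 212 and 50. H3K27ac then followed it at 152 sites (5.76%) and at 17 without GFI1 (0.779%). A minimum score of 100 gave 120 sites (5.83%) and 32 (0.856%) for H3K27ac, and the site centre rule 136 (6.01%) and 24 (0.775%). The share without GFI1 was thus higher in these 3 settings than the 0.321% above.

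**Figure D3:**
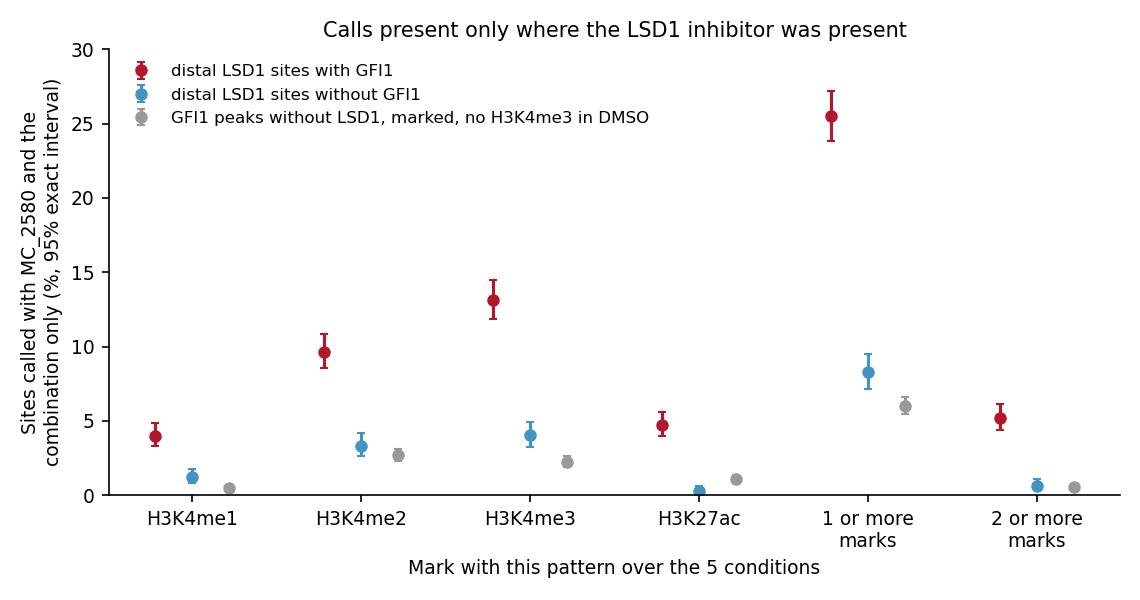
Share of sites (vertical axis, percent with 95% exact interval) whose mark was called with MC_2580 and in the combination only, for each mark and for 1 or more and 2 or more marks (horizontal axis). Distal LSD1 sites with GFI1 (red) lie at 25.5% for 1 or more marks, distal sites without GFI1 (blue) at 8.29% and GFI1 peaks without LSD1 (grey) at 6.02%.

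Sites with GFI1 had stronger LSD1 peaks and another starting mixture, so the differences were also averaged over strata of DMSO state, LSD1 score quartile and width quartile that held both classes. The difference for H3K27ac was then 4.30 points, beside 4.42 (3.58 to 5.26) without strata. For H3K4me2 it was 5.37 beside 6.29 points, for H3K4me3 6.84 beside 9.13, and for 2 or more marks 3.93 beside 4.59. Other patterns described below moved by more: H3K27ac in all 5 conditions from -15.4 to -7.17 points, H3K27ac in none from 8.98 to 3.31, and H3K27ac in the RA-containing conditions only from -2.25 to -5.53.

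The 125 sites where H3K27ac followed the inhibitor pattern could carry only H3K4me1 and H3K4me2 in DMSO, by their choice. Of them, 75 carried H3K4me1 alone, 43 carried H3K4me1 with H3K4me2, and 7 no mark. With MC_2580, 74 of the 125 carried all 4 marks, 26 carried H3K4me1, H3K4me2 and H3K27ac, and 17 carried H3K4me1 with H3K27ac. With RA at 1 µM, 86 carried H3K4me1 alone and 14 no mark. In the combination, 58 carried all 4 marks.

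H3K4me1 and H3K4me2 took no part in choosing these 125 sites, nor did H3K4me3 in the treated cells. H3K4me2 was called at 34.4% in DMSO, 80% after the inhibitor, 12% and 18.4% at the lower and higher RA dose and 71.2% in the combination. H3K4me3 was called at 65.6%, 5.60%, 3.20% and 53.6% in the 4 treatments in that order. H3K4me3 itself followed the inhibitor pattern at 54 of the 125 (43.2%), and H3K4me2 at 36 (28.8%). H3K4me1 was common in every condition, called at 118 in DMSO, at all 125 in both inhibitor conditions, at 102 with RA at 0.01 µM and at 109 with RA at 1 µM. The new H3K27ac peaks scored from 51.9 to 3100 with MC_2580, with a median of 144, and from 51.1 to 3100 in the combination, with a median of 301.

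**Figure D4:**
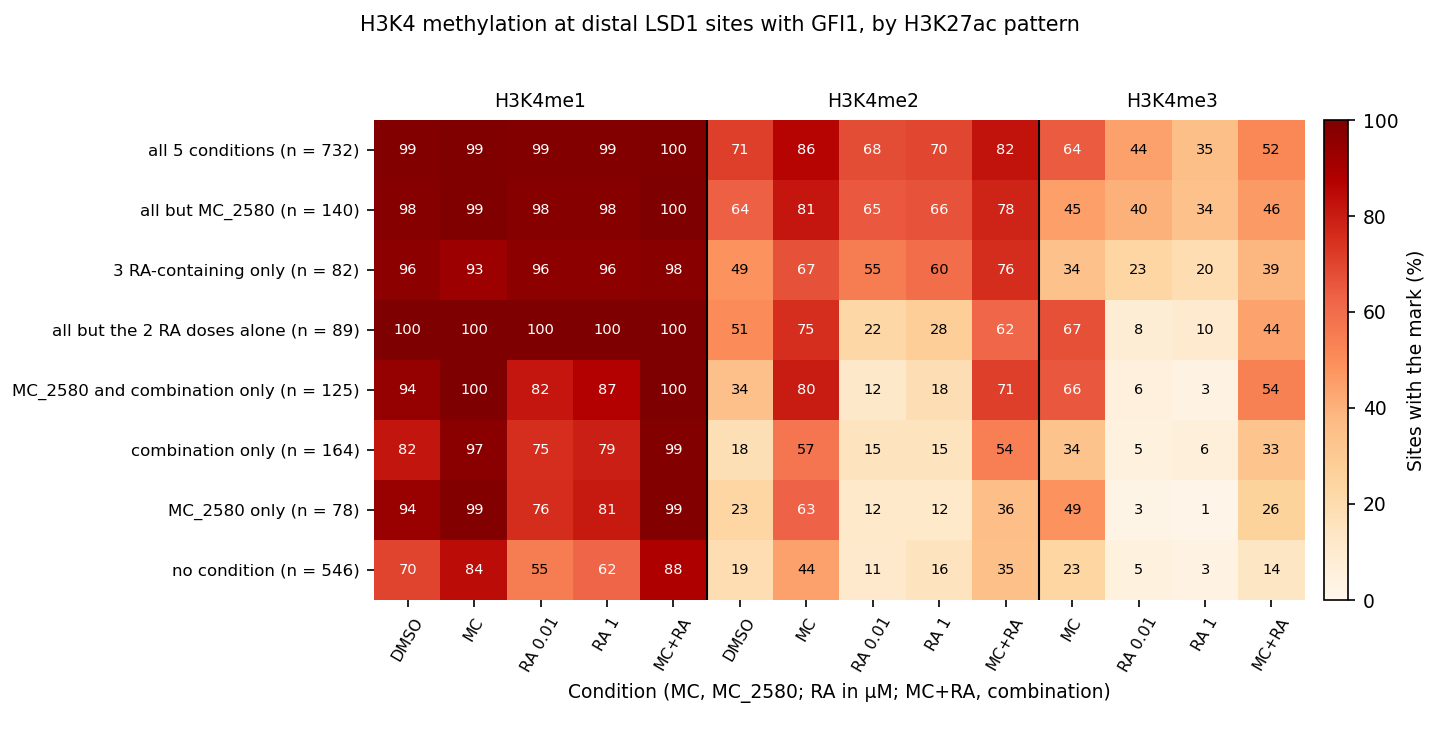
Share of distal LSD1 sites with GFI1 (colour and number, percent) with H3K4me1, H3K4me2 or H3K4me3 in each condition (columns), for 8 patterns of H3K27ac over the 5 conditions (rows, with the number of sites). In the row of H3K27ac with MC_2580 and the combination only (125 sites), H3K4me3 stands at 65.6% and 53.6% in those conditions and at 5.60% and 3.20% with the RA doses.

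The 138 sites with the inhibitor pattern in 2 or more marks overlap with these 125, since 76 have H3K27ac among their marks. In DMSO 67 of the 138 had H3K4me1 alone, 28 H3K4me1 with H3K4me2, 23 H3K4me1 with H3K27ac and 19 no mark. With MC_2580 all 4 marks were called at 92 of them, and with RA at 0.01 µM H3K4me1 alone at 87 and no mark at 28. H3K4me1 could be read at most of them throughout: it was called at 118 in DMSO, at all 138 in both inhibitor conditions, at 108 with RA at 0.01 µM and at 116 with RA at 1 µM.

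Individual sites show the pattern in their calls. Scores of named sites, here and below, rank a peak within its own list and do not measure change between conditions. Sites are named by a rule: in each class the 2 with the highest LSD1 score outside chromosome 8. Gene names are not given, because no annotation of the build was used here. In the class where H3K27ac and at least 1 more mark followed the inhibitor pattern (76 sites, against 1 without GFI1), the first was chr3:58431235-58433364 (hg18, 2130 bases), with LSD1 and GFI1 scores of 3100 and 3100. H3K27ac was called there with MC_2580 (score 1958) and in the combination (3100) and in no other list. H3K4me3 scored 361 and 788 in the same conditions. H3K4me2 scored 61.9 in DMSO, 779 with MC_2580 and 671 in the combination, with no call after either RA dose. H3K4me1 was called in all 5, with scores between 161 and 3100.

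A second site of that class, chr22:41122330-41124341, had an LSD1 score of 3100 and H3K4me1 at 126 in DMSO as its only histone call there. With MC_2580 all 4 marks were called, at 1517 for H3K4me1, 2877 for H3K4me2, 90.4 for H3K4me3 and 149 for H3K27ac. RA at 0.01 µM left no call. H3K4me2, H3K4me3 and H3K27ac all followed the pattern at 17 sites, led by chr1:156484049-156486106 and chr9:109668564-109671052. Both began with H3K4me1 alone (scores 634 and 1277), and after both RA doses they again had H3K4me1 alone. The second of them held H3K27ac at 600 with MC_2580 and 669 in the combination.

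New marks often fell on the same sites, with and without GFI1. With MC_2580, 461 of the 1255 sites without H3K27ac in DMSO were called for H3K4me3 and 306 for H3K27ac, and 188 for both. H3K27ac was thus new at 40.8% of the sites with new H3K4me3 and at 14.9% of those without. Among distal sites without GFI1 the same shares were 14.7% and 11%, and 23 of 676 sites had both. With RA at 1 µM the sites with GFI1 stood at 51.6% and 15.8%, so the coincidence was not confined to the inhibitor. For H3K4me2 with H3K27ac, 119 of 879 sites lacking both acquired both with MC_2580. H3K27ac was new at 31.3% of the sites with new H3K4me2 and at 13.0% of the others, and without GFI1 at 21.2% and 7.71%. In the combination the share of sites with new H3K27ac was 66.8% where H3K4me3 was new and 35.1% where it was not. H3K4me3 itself went with H3K4me2: with MC_2580 it was called at 1164 of 1893 sites with H3K4me2 (61.5%) and at 130 of 744 without (17.5%).

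H3K27ac in the 3 RA-containing conditions only was found at 82 sites (3.11%, background 2.9%), fewer in share than at distal sites without GFI1, where it was 117 (5.36%, a difference of -2.25 points, -3.40 to -1.10). Without the longest H3K27ac list the count with GFI1 was 131 (4.97%). Of the 82, H3K4me2 was called at 48.8% in DMSO and at 75.6% in the combination. The site of the class named first by this rule was chr6:43997973-44004961, 6989 bases wide. It scored 709, 121 and 163 for H3K27ac in the lower RA dose, the higher RA dose and the combination, and it had H3K4me1 and H3K4me2 in all 5 conditions.

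H3K27ac in the combination only was found at 164 sites (6.22%, background 1.97%), against 32 without GFI1 (1.47%). At these 164, H3K4me2 was called at 18.3% in DMSO, 57.3% with MC_2580, 15.2% with each RA dose and 54.3% in the combination. H3K4me1 was called at 81.7% of them in DMSO and at 97.0% with MC_2580. The site chr1:8955834-8957696, with an LSD1 score of 3159, had no histone call in DMSO or with either RA dose. H3K4me1, H3K4me2 and H3K4me3 were called with MC_2580 at 291, 156 and 70.7, and H3K4me1 (920) and H3K27ac (72.0) in the combination.

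Further patterns set RA alone apart from the rest. H3K27ac was called in DMSO, with MC_2580 and in the combination but with neither RA dose at 89 sites (3.38%, background 1.37%), against 17 without GFI1 (0.779%). Without the longest H3K27ac list the count with GFI1 was 135 sites (5.12%). H3K4me2 had that pattern at 168 sites (6.37%, background 2.32%), against 45 (2.06%). Weak calls weighed on both counts: sites free of calls scoring under 100 numbered 38 for H3K27ac and 26 for H3K4me2. A minimum score of 100 gave 88 of the 2059 sites then chosen for H3K4me2. An example is chr6:159006538-159009098, where H3K4me2 was called in DMSO and scored 1420 with MC_2580 and 841 in the combination, and H3K4me3 (1458 and 1994) and H3K27ac (668 and 3100) were called in the inhibitor conditions only. At chr2:217790858-217794157, H3K27ac scored 107 in DMSO, 997 with MC_2580 and 67.9 in the combination, with none after RA alone.

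The opposite case, H3K27ac in every condition except MC_2580, was found at 140 sites (5.31%, background 5.56%) and was more frequent without GFI1, at 211 sites (9.67%, a difference of -4.36 points, -5.86 to -2.85). With lists of equal length the count with GFI1 was 74, and the MC_2580 list of H3K27ac is the shortest of the 5. These 140 sites were wide, 2405 bases in the median. At chr13:51296495-51301281, H3K27ac scored 506 in DMSO, 834 and 1998 with the RA doses and 3100 in the combination, and had no call with MC_2580. H3K4me1 was called there in DMSO (3100) and with MC_2580 (3100).

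Some marks kept their call or its absence throughout. H3K27ac was called in all 5 conditions at 732 sites (27.8%) and in none at 546 (20.7%), against 943 (43.2%) and 256 (11.7%) without GFI1. With a minimum score of 100 in every list, 457 of 2059 sites had H3K27ac in all 5. H3K4me3 was called in no treatment at 1138 sites (43.2%) and in all 4 at 332 (12.6%), against 1163 (53.3%) and 303 (13.9%) without GFI1. With lists of equal length the counts with GFI1 were 1656 and 149. Over the 20 calls per site, the 2637 sites showed 1016 different patterns, and 639 of these belonged to 1 site each. The commonest, at 140 sites, had H3K4me1, H3K4me2 and H3K27ac in all 5 conditions and H3K4me3 in all 4 treatments. Its share was 5.31%, against 6.96% without GFI1. H3K4me1 in all 5 with no other mark followed at 71 sites (2.69%, against 2.11%). At 60 sites H3K4me1, H3K4me2 and H3K27ac were called in all 5 and H3K4me3 in none (2.28%, against 4.81%). H3K4me1 in the inhibitor conditions as the only calls of a site was found at 44 sites (1.67%), against 7 without GFI1 (0.321%). Another 44 sites had no call in any of the 20 lists (1.67%, against 2.52% without GFI1). Among them was chr20:18760038-18761168, with LSD1 and GFI1 scores of 1849 and 1155.

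The inhibitor pattern was more frequent at sites with higher GFI1 scores. In quartiles of GFI1 score from lowest to highest, H3K27ac showed the pattern at 1.21%, 3.19%, 4.10% and 10.5% of about 659 sites each. The intervals of the lowest quartile (0.525 to 2.37) and of the highest (8.24 to 13.1) did not meet. H3K4me2 went from 4.39% to 16.2% and H3K4me3 from 6.82% to 21.8% between these quartiles, and 2 or more marks from 1.21% to 11.7%. H3K27ac in all 5 conditions ran the other way, at 39.8%, 31.7%, 24.0% and 15.5%. H3K4me3 in any treatment was nearly level, at 56.2%, 56.1%, 55.4% and 59.6%. The quartiles of LSD1 score gave 4.09%, 3.34%, 3.19% and 8.35% for the H3K27ac pattern, and 44.4% to 74.2% for H3K4me3 in any treatment. Between the lowest and highest LSD1 quartiles, the inhibitor pattern went from 6.97% to 22.6% in H3K4me3 and from 6.5% to 14.0% in H3K4me2. For 2 or more marks it went from 2.73% to 10.3%, so the rise was not particular to the GFI1 score. Both scores come from lists that chose the sites, so these are descriptions within the sites.

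**Figure D5:**
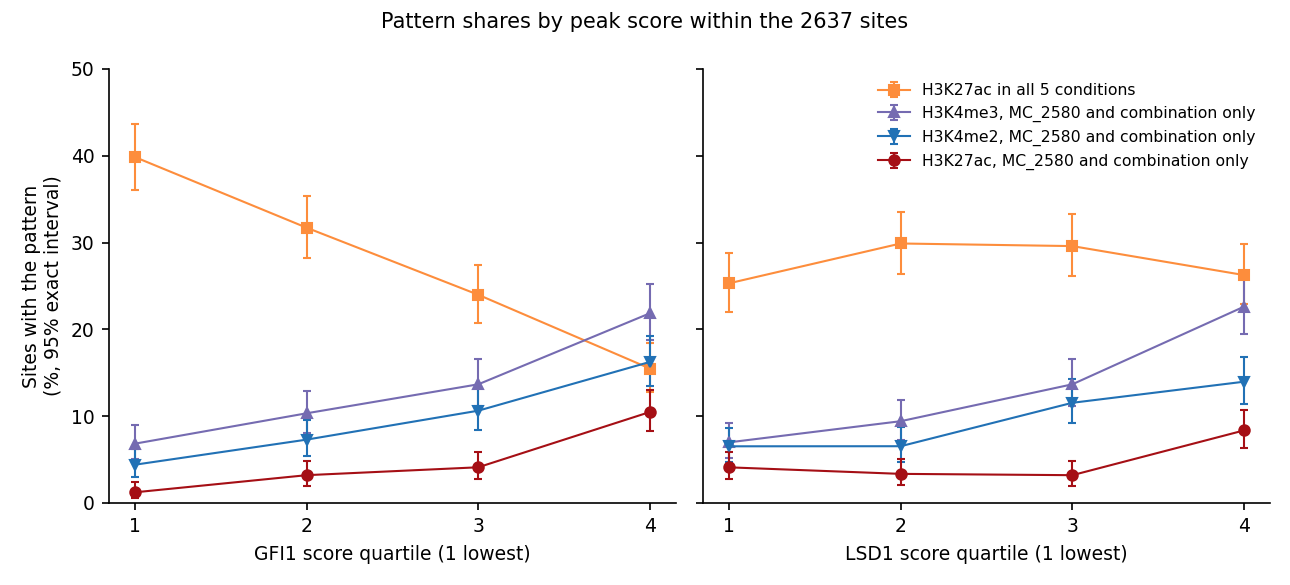
Share of the 2637 sites (vertical axis, percent with 95% exact interval) with each pattern, by quartile of the GFI1 score (left) and the LSD1 score (right). H3K27ac with MC_2580 and the combination only stands at 1.21% in the lowest and 10.5% in the highest GFI1 quartile, and H3K27ac in all 5 conditions at 39.8% and 15.5%.

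Site width also went with the patterns. The widest quartile of sites had H3K27ac in all 5 conditions at 48.6%, and the narrowest at 8.79%. From narrowest to widest, the inhibitor pattern stood at 5.45%, 6.22%, 4.70% and 2.58% in H3K27ac. In H3K4me2 it went from 13.0% in the narrowest to 3.79% in the widest. In H3K4me3 it stood at 8.79%, 15.3%, 17.15% and 11.4%, so it did not fall with width in every mark. Within 1 kb of an H3K4me3 peak of DMSO, 4 of 143 sites followed the inhibitor pattern in H3K27ac (2.80%), and beyond 10 kb 87 of 1669 (5.21%). The intervals were 0.767 to 7.01 and 4.20 to 6.39, and 4 sites are too few to tell whether distance mattered. H3K27ac was also called in all 5 conditions at 49.0% of the near sites and 21.7% of the far ones, which therefore could not follow the pattern. Where the LSD1 peak was again called with MC_2580, the H3K27ac pattern was at 4.40%, and where it was not, at 6.04% (intervals 3.56 to 5.37 and 4.20 to 8.38). The H3K27ac pattern was thus found both where LSD1 was still called with the inhibitor (92 of the 125 sites) and where it was not. The pattern in H3K4me2 stood at 9.33% and 10.8% in these groups. In H3K4me3 it was more frequent where the LSD1 peak was kept, at 13.9% and 10.3% (intervals 12.5 to 15.5 and 7.84 to 13.1). An LSD1 peak with MC_2580 was found at 95.4% of the sites with H3K27ac in all 5 conditions and at 51.1% of the sites with it in none.

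At the edges of the choice, 59 members shared at most 500 bases with GFI1. H3K4me3 with MC_2580 was called at 25 of these (42.4%), beside 32 of 72 sites (44.4%) that had a GFI1 peak within 500 bases but none on the site. H3K27ac followed the inhibitor pattern at 0 and 1 of them. On the other edge, 63 members had an H3K4me3 peak of DMSO within 500 bases, and 47 of these were called for H3K4me3 with MC_2580 (74.6%). Sites with GFI1 that shared at most 500 bases with H3K4me3 in DMSO numbered 65, and all 65 were called with MC_2580. They had the mark from the start, so these are kept and not new calls. Of all LSD1 sites with GFI1 and H3K4me3 in DMSO, 99.6% were called.

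Only 96 windows of 100 kb held 3 or more of the sites. The most, 6 each, lay in chr19:52500001-52600000, chr2:113100001-113200000 and chr20:48300001-48400000. In the window on chromosome 20, H3K27ac was called at all 6 sites in DMSO, with both RA doses and in the combination, and at 4 with MC_2580. In the window on chromosome 2 it was called at 6 in DMSO, 4 with MC_2580, 5 and 6 with the RA doses and 4 in the combination. In the window on chromosome 19, 2 sites had it in DMSO and none with MC_2580. No site in these 3 windows followed the inhibitor pattern in 2 or more marks. Among 232 pairs of neighbouring sites within 10 kb, H3K27ac followed the inhibitor pattern at both in 4 pairs and at 1 of them in 10. Only 429 of the 2637 sites (16.3%) had another of the sites within 10 kb.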

How the data were processed

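The 23 deposited peak lists, each from 1 of 25 samples (the 2 inputs had none), were used as the authors made them. Per the submitters' processing notes, the reads were handled with MACS 1.4.1, Bowtie 1.0.1, FastQC (0.10.0 and 0.11.5), CASAVA 1.8 and bcl2fastq 2, on hg18. The value in the deposited lists is a peak score given by the authors. The LSD1 lists start at scores of 234 (DMSO) and 357 (MC_2580), and the sources used here do not name the step behind these limits. Read depth is unknown, so counts of sites carry counting error only. Overlaps of at least 1 base were computed with Python 3.11.15, NumPy 2.4.6, pandas 2.3.3 and SciPy 1.17.1, and figures were drawn with Matplotlib 3.10.9. In 8 peaks a start below 0 was set to 0. Groups followed antibody and treatment field, with 1 library each, so no test between treatments was made.

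The members, patterns and comparison sets were chosen with earlier results of these data known. Named sites were the 2 members with the highest LSD1 score in each pattern class, outside chromosome 8, and the 3 windows of 100 kb with the most members; not every named site is printed. Alternatives were a minimum score of 100, the site centre in the peak, marks within 1 kb, lists of equal length, only sites without calls scoring under 100, no H3K4me3 within 2.5 kb, autosomes, joined LSD1 peaks, members above the median LSD1 score, leaving out 1 library and standardising over strata. Counting only new H3K4me3 peaks that touch no DMSO peak was added after seeing the data. Simulated lists with known overlaps served to test the overlap code. Coordinates are 1-based. No hg18 genome or annotation was used here, so genes and sequences are not given.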

Additional observations from a re-analysis of the deposited data

Results flagged for a closer look

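In 4 comparisons the distal LSD1 sites with and without GFI1 moved in opposite directions against DMSO in the share of sites called, and these differences were not tested, since each condition had 1 library. For H3K27ac with MC_2580 the share was 1.10 percentage points higher with GFI1 and stood at -13.4 points without. For H3K27ac with RA at 0.01 µM it was -5.73 points with GFI1 and 5.27 points without. For H3K27ac with RA at 1 µM it was -1.52 points with GFI1 and 1.83 points without. For H3K4me2 with RA at 1 µM it was -5.95 points with GFI1 and 1.01 points without. The largest gap belongs to H3K27ac with MC_2580, whose list is the shortest of the 5 for that mark (24552 peaks against 32789 in DMSO), and the longest list is that of RA at 0.01 µM. The part of list length in these shares was not tested.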

How the results depend on the processing

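Nearly all results are counts of sites, recomputed under 13 settings. Of the 8 main results, 66 recomputed values stayed within 1.5 times the reported count or within the interval of the difference, and 16 did not. The number of members is 1 of the 8 and counts among these values. It stayed at 2637 by construction with marks within 1 kb, lists of equal length and sites without calls scoring under 100. Of the 138, 125, 254 and 347 sites with the inhibitor pattern in 2 or more marks, H3K27ac, H3K4me2 and H3K4me3, sites free of calls scoring under 100 left 45, 77, 88 and 131. The same restriction left 49 of the 82 sites with H3K27ac in the RA-containing conditions only, and 89 of the 188 sites with new H3K4me3 and H3K27ac. Lists of equal length gave 157 for H3K4me2 and 212 for H3K4me3. A minimum score of 100 gave 220 of the 2059 sites then chosen for H3K4me3. The 1318 members above the median LSD1 score held 76 for H3K27ac, 168 for H3K4me2 and 34 for the RA-containing conditions only, and the difference from distal sites without GFI1 in the H3K27ac pattern was 5.58 points. Under the other settings it was lowest for sites free of calls scoring under 100, at 3.92 points as a share of such sites and 2.74 points as a share of all sites. Leaving out the H3K4me3 combination library gave 710, and leaving out the longest H3K27ac list gave 131. Among distal sites without GFI1, 122 (5.59%) followed the pattern in 1 or more marks with lists of equal length, beside 506 members (19.2%). At equal length the joint state with MC_2580 matched DMSO at 1126 members (42.7%) in place of 684.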
